A study of Mus musculus with 9 samples.

Results

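Kupffer cells, the macrophages that reside in the liver sinusoids, were followed through 9 marker genes: Clec4f, Timd4, Vsig4, Cd5l, Marco, Adgre1, Csf1r, Cd163 and Folr2. The members were taken by gene symbol from a count table of whole liver RNA that lists 24008 genes. All 9 were listed, and all 9 had enough counts to be among the 14379 genes tested.

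The table holds 9 libraries, 3 per group and 1 per mouse, from male C57BL/6J mice with nonalcoholic steatohepatitis (NASH). All mice received a NASH diet rich in fat, cholesterol and carbohydrate, with fructose and glucose in the drinking water, from 8 weeks of age. The diet lasted 24 weeks by the description of the design and 12 weeks by that of the virus. Flox mice, labelled WT, carry the Irf4 flox/flox alleles without Cre. F4MKO mice carry these alleles with Myl-Cre, which deletes Irf4 in skeletal muscle and leaves the gene intact in liver cells. F4MKO+FSTL1 mice are F4MKO mice whose gastrocnemius received an adeno-associated virus with Flag-tagged FSTL1 under the muscle creatine kinase promoter, 4 weeks before the liver was collected. The study's methods give the other groups a GFP virus, which the labels do not name. The study stained livers of such mice for F4/80, the protein of Adgre1, to ask whether muscle IRF4 and FSTL1 alter hepatic macrophages.

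Kupffer cells are seeded before birth from embryonic precursors and maintain themselves under signals from endothelial cells, stellate cells and hepatocytes, among them CSF1 and IL34, which act through the receptor encoded by Csf1r. They clear bacteria, apoptotic cells, complement-coated particles and haemoglobin from portal blood through surface receptors. In steatohepatitis, monocytes enter the liver and give rise to macrophages that share Csf1r and Adgre1 with Kupffer cells but acquire genes such as Clec4f and Timd4 late or not at all.

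The promoters of members are shown since they carry short motifs of transcription factors that shape these cells. The factor PU.1, encoded by Spi1, binds a core written here as GAGGAA, and nuclear receptors such as LXR-alpha, encoded by Nr1h3, bind sites built from AGGTCA. The 250 bases before the start site were searched on both strands for these letters, which do not overlap each other. RefSeq windows (build GRCm38.p6) of 7 of the 9 members were searched, and Adgre1 and Csf1r were not. Capitals mark a match, read as GAGGAA or TTCCTC for the PU.1 core and as AGGTCA or TGACCT for the nuclear receptor hexamer. Each sequence runs 5′ to 3′ on the strand of its gene.
Cd5l, chr3:87357631-87357880, plus strand: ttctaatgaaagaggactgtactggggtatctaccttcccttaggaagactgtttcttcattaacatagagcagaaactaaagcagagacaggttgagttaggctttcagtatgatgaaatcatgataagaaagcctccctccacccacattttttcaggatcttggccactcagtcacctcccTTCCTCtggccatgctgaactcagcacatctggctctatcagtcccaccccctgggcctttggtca
Vsig4, chrX:96293439-96293688, minus strand: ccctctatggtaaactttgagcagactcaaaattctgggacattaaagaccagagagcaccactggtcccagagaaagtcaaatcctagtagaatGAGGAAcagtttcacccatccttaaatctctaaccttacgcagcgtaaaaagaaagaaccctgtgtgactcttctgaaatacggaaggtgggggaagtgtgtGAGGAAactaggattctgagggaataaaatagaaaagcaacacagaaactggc
Clec4f, chr6:83656117-83656366, minus strand: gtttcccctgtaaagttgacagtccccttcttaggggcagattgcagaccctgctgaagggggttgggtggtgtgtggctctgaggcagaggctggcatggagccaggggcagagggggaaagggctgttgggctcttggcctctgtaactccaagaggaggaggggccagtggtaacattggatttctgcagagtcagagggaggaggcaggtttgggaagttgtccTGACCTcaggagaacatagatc
Timd4, chr11:46810549-46810798, plus strand: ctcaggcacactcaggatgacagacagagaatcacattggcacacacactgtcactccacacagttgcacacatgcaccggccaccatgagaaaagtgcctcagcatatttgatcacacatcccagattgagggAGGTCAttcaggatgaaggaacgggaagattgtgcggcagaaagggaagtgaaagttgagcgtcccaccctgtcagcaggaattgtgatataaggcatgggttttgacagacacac
The PU.1 core was found in 3 of the 7 members searched, Vsig4 with 2 matches and Cd5l and Marco with 1 each. It was found in 23.3% of the 32851 windows of all genes. The hexamer AGGTCA was found in 2 of the 7, Clec4f and Timd4, and in 14.0% of all windows. Neither stood in the windows of Cd163 and Folr2. These are matches of letters and not measured binding sites.

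The depth of the libraries ran from 20656976 to 24322984 counted reads. Hepatocyte genes were abundant in every library, with 7 of them summing to between 68285 and 99005 CPM, the count relative to the normalized library total. Irf4 had 101 to 132 counts in Flox libraries, 120 to 130 in F4MKO libraries and 10 to 116 in F4MKO+FSTL1 libraries, and since only muscle carries the deletion, liver Irf4 does not check the genotype. Liver Fstl1 had 138 to 186, 234 to 456 and 67 to 114 counts in the same order, which does not measure the muscle transgene. No liver gene here could check which libraries were F4MKO and which F4MKO+FSTL1, so the direction of every difference between groups rests on the labels. The libraries labelled F4MKO had the highest liver Fstl1 counts, and the highest summed levels of shared macrophage, stellate cell and dividing cell genes given below, and those labelled F4MKO+FSTL1 had the lowest. Values below are CPM after normalization of library size by the TMM method of edgeR. In bulk liver RNA, fewer Kupffer cells and less RNA per cell cannot be told apart.

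Cd5l and Clec4f were the most abundant members. Levels were compared between genes only per kb of merged exons (GENCODE vM21), and in Flox livers Cd5l averaged 86.0 ± 29.5 CPM per kb (SD, n = 3) and Clec4f 55.6 ± 11.8. The ranges of these genes overlapped, from 65.3 to 120 for Cd5l and from 47.4 to 69.1 for Clec4f. Vsig4 followed with 26.4 ± 8.28 CPM per kb and lay below Clec4f in every Flox liver. Folr2 (15.6), Csf1r (14.4) and Marco (11.5) had overlapping ranges in Flox livers, as did Marco and Adgre1 (7.55). Cd163 (3.56) and Timd4 (3.15) were the lowest and overlapped each other. In F4MKO livers Csf1r, with a mean of 15.9 CPM per kb, stood wholly above Folr2, whose range was 8.69 to 13.9, and Cd163 had the lowest mean, 0.969. In F4MKO+FSTL1 livers Cd5l (44.8) and Clec4f (35.4) again led, and Timd4 (1.88) was lowest.

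**Figure D1:**
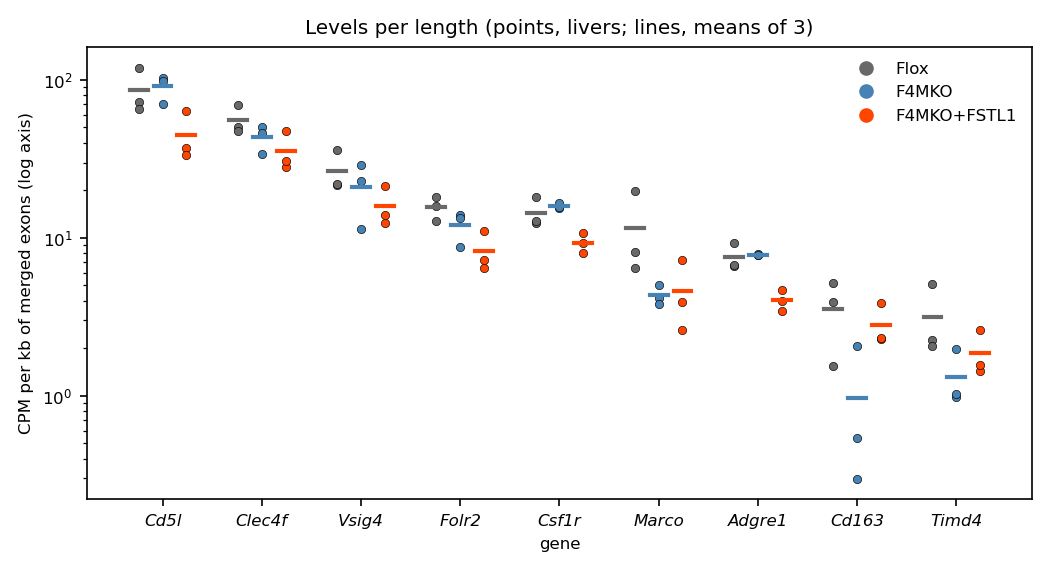
CPM per kb of merged exons on a log axis for each member, with a point per liver and a line at the mean of 3 livers in each group. The means of Cd5l and Clec4f are highest in all 3 groups, and those of Cd163 and Timd4 are lowest.

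Csf1r encodes the receptor for CSF1 and IL34, on which macrophages depend for survival. Its gene lies on chromosome 18. Csf1r was at 72.0, 73.6 and 104 CPM in Flox livers, 89.5, 91.1 and 95.4 CPM in F4MKO livers, and 53.2, 46.2 and 61.9 CPM in F4MKO+FSTL1 livers. The F4MKO+FSTL1 values lay below all those of the other groups, which overlapped. The F4MKO livers differed little from each other, with the highest only 1.07 times the lowest.

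Adgre1 (chr17:57358691-57483527, plus strand, GRCm38) encodes F4/80, an adhesion receptor used to stain mouse macrophages. It was at 21.6, 21.7 and 30.0 CPM in Flox livers, 25.2, 25.7 and 25.2 CPM in F4MKO livers, and 12.9, 11.2 and 15.1 CPM in F4MKO+FSTL1 livers. As for Csf1r, all F4MKO+FSTL1 livers were lower than all others, and the F4MKO livers lay inside the Flox range.

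Clec4f (chr6:83644542-83656187, minus strand) encodes a C-type lectin that binds galactose-type glycans and is found in mouse almost only on Kupffer cells. It was at 124, 117 and 171 CPM in Flox livers, 84.3, 124 and 113 CPM in F4MKO livers, and 69.6, 76.3 and 117 CPM in F4MKO+FSTL1 livers. The means were in the order Flox, F4MKO and F4MKO+FSTL1 (137, 107 and 87.5 CPM), with overlap between each neighbouring pair and none between Flox and F4MKO+FSTL1, whose nearest livers were almost equal.

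Timd4 (chr11:46810800-46844332, plus strand) encodes a phosphatidylserine receptor for apoptotic cells and marks Kupffer cells of embryonic origin. It was at 4.90, 4.51 and 11.1 CPM in Flox livers, 2.12, 4.27 and 2.24 CPM in F4MKO livers, and 3.13, 3.41 and 5.69 CPM in F4MKO+FSTL1 livers. All F4MKO livers lay below all Flox livers, by a narrow margin for F4MKO replicate 2. The F4MKO+FSTL1 livers overlapped both other groups.

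Vsig4 (chrX:96247203-96293438, minus strand) encodes the complement receptor CRIg, which captures particles coated with C3 fragments. It was at 31.9, 32.4 and 53.4 CPM in Flox livers, 34.1, 42.9 and 16.8 CPM in F4MKO livers, and 20.7, 18.5 and 31.7 CPM in F4MKO+FSTL1 livers. F4MKO replicate 3 had the lowest Vsig4 of all 9 livers, whereas the other F4MKO livers lay within the Flox range. All F4MKO+FSTL1 livers were lower than all Flox livers, F4MKO+FSTL1 replicate 3 only just.

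Marco (chr1:120474538-120505024, minus strand) encodes a class A scavenger receptor for bacteria. It was at 12.5, 15.7 and 38.3 CPM in Flox livers, 7.96, 9.72 and 7.34 CPM in F4MKO livers, and 5.05, 7.55 and 13.9 CPM in F4MKO+FSTL1 livers. All F4MKO livers lay below all Flox livers, and Flox replicate 3 stood far above the rest.

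Cd163 (chr6:124304656-124330527, plus strand) encodes the receptor for haptoglobin-haemoglobin complexes. It varied more than any other member within the Flox and F4MKO groups, where the highest liver was 3.35 and 6.91 times the lowest. It was at 8.47, 21.5 and 28.4 CPM in Flox livers, 2.94, 11.3 and 1.64 CPM in F4MKO livers, and 12.4, 12.7 and 21.1 CPM in F4MKO+FSTL1 livers. F4MKO replicate 3 had 41 counts of Cd163 and F4MKO replicate 2 had 270. The F4MKO and Flox groups overlapped through F4MKO replicate 2 and Flox replicate 1, and all F4MKO+FSTL1 livers lay above all F4MKO livers.

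Cd5l (chr3:87357881-87371073, plus strand) encodes AIM, a protein secreted by tissue macrophages that supports their survival. It was at 149, 133 and 244 CPM in Flox livers, 143, 211 and 202 CPM in F4MKO livers, and 75.7, 68.5 and 129 CPM in F4MKO+FSTL1 livers. The F4MKO+FSTL1 livers lay below all others, with F4MKO+FSTL1 replicate 3 close to the lowest Flox liver.

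Folr2 (chr7:101839988-101857194, minus strand) encodes folate receptor beta, a marker of resident macrophages in many tissues. It was at 24.5, 19.9 and 27.9 CPM in Flox livers, 13.4, 21.5 and 20.8 CPM in F4MKO livers, and 9.91, 11.2 and 17.1 CPM in F4MKO+FSTL1 livers. Neighbouring groups overlapped, and F4MKO+FSTL1 livers were all below Flox livers.

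**Figure D2:**
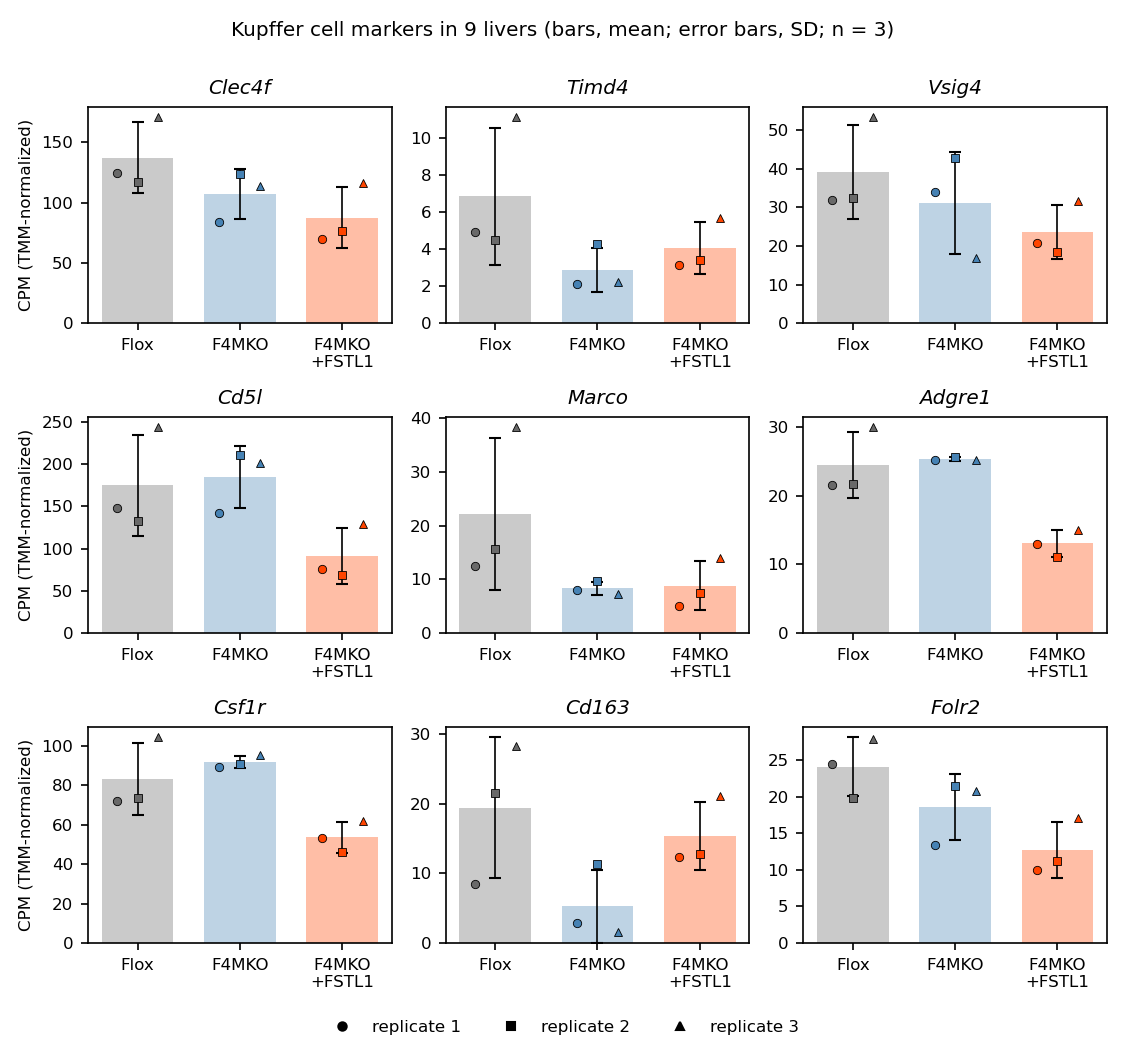
TMM-normalized CPM of each member in the 9 livers, with bars at the mean of 3 mice, error bars at ±1 SD and point shapes for replicate numbers. Adgre1 and Csf1r are lower in all F4MKO+FSTL1 livers than in all other livers, while Timd4 and Marco are lower in all F4MKO than in all Flox livers.

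The members tended to be high in the same mice of a group. Flox replicate 3 was the highest Flox liver for 9 of 9 members, F4MKO+FSTL1 replicate 3 was the highest of its group for 9 of 9, and F4MKO replicate 2 was the highest of its group for 8 of 9. The share of all genes with this pattern was not computed. Of other Kupffer cell genes named below, Axl, C1qc, Cfp, Fcna and Il18bp were also highest in replicate 3 of the Flox and F4MKO+FSTL1 groups, and Siglec1 was not. The summed CPM of the members was 449, 439 and 708 in Flox livers, 402, 541 and 485 in F4MKO livers, and 263, 256 and 412 in F4MKO+FSTL1 livers. The sum of F4MKO+FSTL1 replicate 3 thus lay above the lowest F4MKO liver, and that group was below Flox without overlap.

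In F4MKO compared with Flox livers, none of the members was called as changed, which required a fold change above 1.5 and an adjusted p under 0.05 by the quasi-likelihood test of edgeR (Benjamini-Hochberg, over all tested genes). Of all tested genes, 0.271% passed. An unadjusted p under 0.05 was reached by 3 of 9 members, against 16.9% of all genes, and DESeq2 called 1, Timd4, as it called 0.554% of its genes lower. The 3 members were Cd163 with a log2 fold change of -1.89 ± 0.59 (SE, adjusted p = 0.154), Marco with -1.41 ± 0.42 (adjusted p = 0.139) and Timd4 with -1.26 ± 0.39 (adjusted p = 0.153). Timd4 and Marco were the 2 members whose groups did not overlap, both lower in F4MKO, and 21.8% of all tested genes were free of overlap in either direction.

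The differences of the other members from Flox were smaller. Folr2 (-0.38), Clec4f (-0.36) and Vsig4 (-0.33) had negative log2 fold changes, and Adgre1 (0.05), Cd5l (0.08) and Csf1r (0.14) lay near 0, with 95% intervals from -0.26 to 0.37 for Adgre1 and from -0.18 to 0.47 for Csf1r. The median over the 9 members was -0.36, beside -0.003 over all tested genes. Without Flox replicate 3 the log2 fold changes of Timd4 and Marco were -0.72 and -0.76, and without F4MKO replicate 2 that of Cd163 was -3.08 and passed the threshold (adjusted p = 0.0402, with a range of 0.00450 to 0.457 over all alternatives).

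In F4MKO+FSTL1 compared with F4MKO livers, 3 of 9 members fell past the threshold, beside 11.2% of all tested genes. Adgre1 was 1.94-fold lower (log2 fold change -0.96 ± 0.15, adjusted p = 0.00207 by edgeR's quasi-likelihood test), Cd5l 2.03-fold lower (-1.02 ± 0.28, adjusted p = 0.0234) and Csf1r 1.71-fold lower (-0.77 ± 0.15, adjusted p = 0.00524). These 3 members were lower in 3 of 3 F4MKO+FSTL1 livers than in any F4MKO liver, as were 21.1% of all tested genes. The macrophage receptors Adgre1 and Csf1r and the secreted Cd5l were past the threshold, and the lectin Clec4f was not, with a log2 fold change of -0.29 ± 0.21 (adjusted p = 0.358) and a 95% interval from -0.76 to 0.18. The difference between these members in response was not tested.

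Members differed in sign in this comparison. Cd163 was higher in every F4MKO+FSTL1 liver, as were 18.0% of all tested genes, with a log2 fold change of 1.55 ± 0.59 that did not pass (adjusted p = 0.0851). Timd4 was at 0.51 ± 0.40 (adjusted p = 0.401) and Marco at 0.08 ± 0.43 (adjusted p = 0.914). Folr2 was at -0.54 ± 0.23 (adjusted p = 0.112) and Vsig4 at -0.41 ± 0.32 (adjusted p = 0.396). The median of the members was -0.41, beside 0.01 over all genes. Adgre1 and Csf1r passed with each library left out in turn, whereas Cd5l did not pass without F4MKO replicate 2, F4MKO replicate 3, F4MKO+FSTL1 replicate 1 or F4MKO+FSTL1 replicate 2 (adjusted p = 0.0576, 0.0541, 0.0760 and 0.0985, with a range of 0.000414 to 0.0985 over all alternatives). Without F4MKO replicate 2, Cd163 was at 2.73 and passed (adjusted p = 0.00563, with a range of 0.00514 to 0.250), Folr2 passed without F4MKO replicate 1 or F4MKO+FSTL1 replicate 3, and no member passed a test against a fold change of 1.5.

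In F4MKO+FSTL1 compared with Flox livers, all 9 members had negative log2 fold changes, as did 50.1% of all tested genes. The members tended to be high in the same mice, so their signs are not independent of each other. None passed the threshold by edgeR, beside 0.00695% of all tested genes. An unadjusted p under 0.05 with a lower level was found for 7 of 9 members, against 9.12% of all genes. DESeq2 called 3 members, Adgre1, Csf1r and Folr2, and 1.64% of its genes as lower. Clec4f, Vsig4, Cd5l, Adgre1, Csf1r and Folr2, that is 6 of 9 members, were lower in every F4MKO+FSTL1 liver than in any Flox liver, against 10.7% of all genes.

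The log2 fold changes against Flox ran from -1.33 ± 0.42 for Marco to -0.34 ± 0.56 for Cd163, with a median of -0.75 beside -0.0004 over all genes. Without Flox replicate 3, Marco was at -0.67. Adgre1, at -0.90 ± 0.15, had the smallest adjusted p (0.0640 by edgeR's quasi-likelihood test). Cd5l was at -0.94 ± 0.27, Folr2 at -0.92 ± 0.23, Timd4 at -0.75 ± 0.39, Vsig4 at -0.73 ± 0.32, Clec4f at -0.65 ± 0.21 and Csf1r at -0.63 ± 0.15. Leaving out F4MKO+FSTL1 replicate 3, the liver of that group with the highest value of each member, let Adgre1 and Folr2 pass (adjusted p = 0.0317 and 0.0394, with ranges of 6.11e-05 to 0.287 and 0.00406 to 0.403). The comparisons share groups and are not independent of each other.

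**Figure D3:**
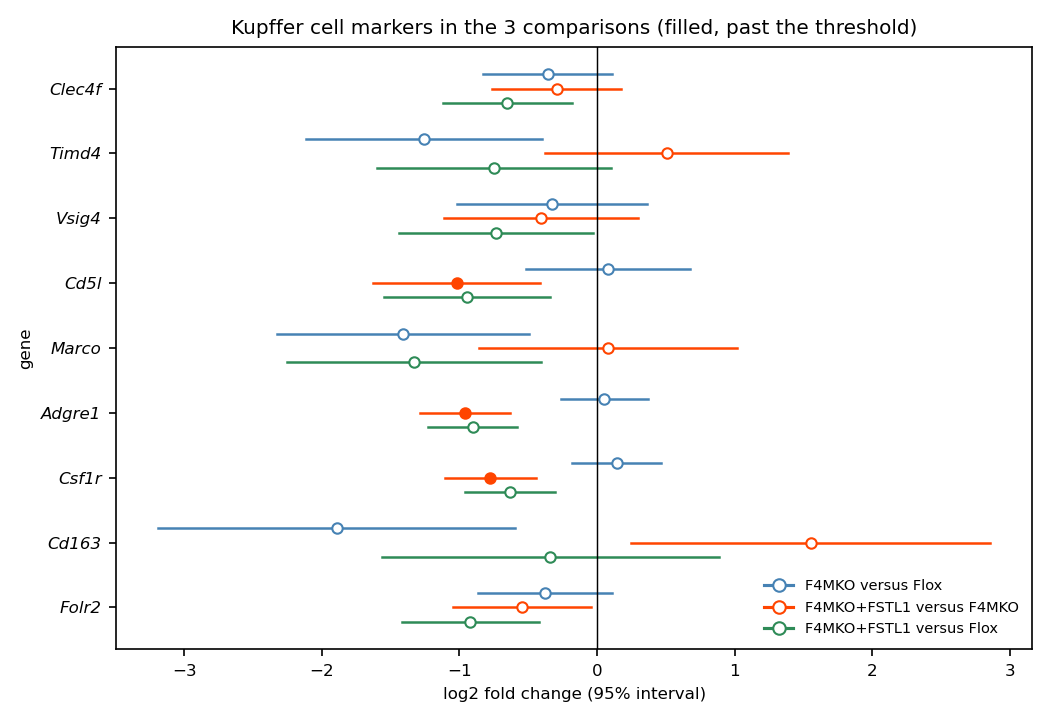
Log2 fold change of each member with its 95% interval in the 3 comparisons, filled where the threshold was passed. Adgre1, Cd5l and Csf1r are the filled points, all in F4MKO+FSTL1 compared with F4MKO, and Cd163 has the widest intervals.

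Ratios of counts within a library do not depend on its depth, and they show how the members stood relative to each other. They were computed for 5 pairs of members, with no test. Clec4f per Csf1r was 1.72, 1.59 and 1.64 in Flox livers, 0.942, 1.36 and 1.19 in F4MKO livers, and 1.31, 1.65 and 1.88 in F4MKO+FSTL1 livers. The ratio was thus lower in all F4MKO livers than in all Flox livers, and F4MKO+FSTL1 overlapped both. Adgre1 per Csf1r ran from 0.287 to 0.300 in Flox, 0.264 to 0.282 in F4MKO and 0.241 to 0.244 in F4MKO+FSTL1 livers, and none of the groups overlapped.

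Cd5l per Clec4f was 1.69, 1.70 and 1.78 in F4MKO livers, above all Flox (1.14 to 1.43) and all F4MKO+FSTL1 livers (0.898 to 1.11). Timd4 per Clec4f was 0.0197 to 0.0345 in F4MKO livers, below all Flox (0.0385 to 0.0652) and all F4MKO+FSTL1 livers (0.0447 to 0.0489). Cd163 per Clec4f was 0.167 to 0.181 in F4MKO+FSTL1 livers, above all F4MKO livers (0.0144 to 0.0912), and Flox livers spread from 0.0682 to 0.184. Relative to Clec4f, Cd5l counts were thus higher and Timd4 counts lower in all F4MKO livers than in all others, with a narrow margin for Timd4. The share of all gene pairs with ratios so separated was not computed. Of single genes, 21.8% were free of overlap between F4MKO and Flox, so the separation of these pairs is not read as particular to the members.

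**Figure D4:**
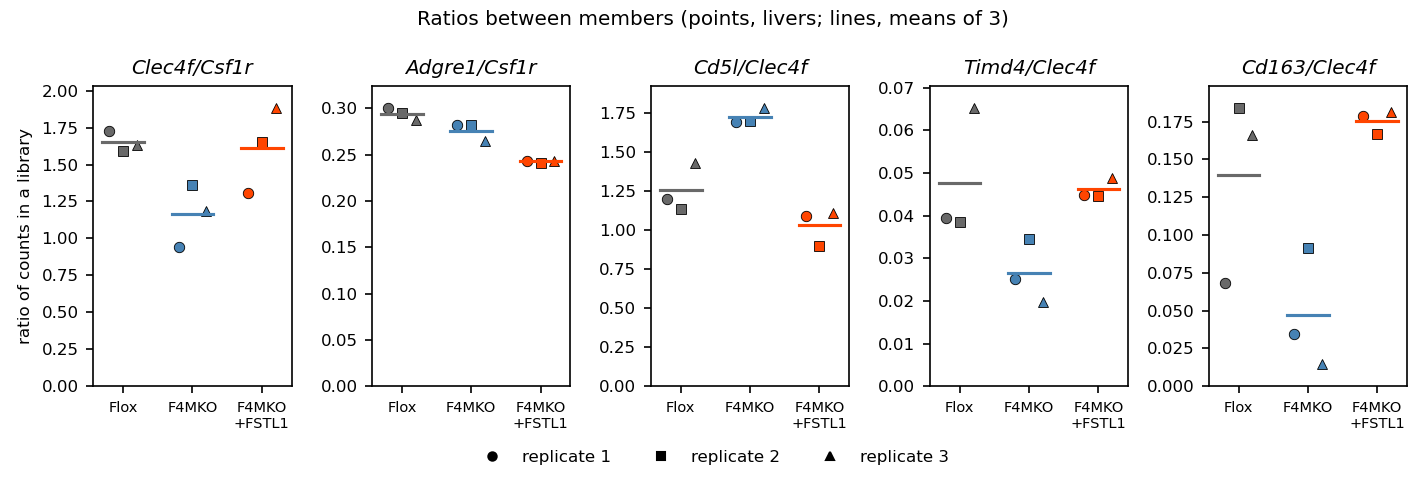
Ratio of the counts of a pair of members in each of the 9 libraries, with lines at group means and point shapes for replicate numbers. Cd5l per Clec4f is highest and Timd4 per Clec4f lowest in the 3 F4MKO livers.

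Other genes of Kupffer cells were also measured. Of 14 such genes, 9 fell and 0 rose in F4MKO+FSTL1 compared with F4MKO, with a median log2 fold change of -0.74. Among them were Axl, a receptor for dying cells (-1.01 ± 0.16, adjusted p = 0.00228 by edgeR), Il18bp, the decoy of IL-18 (-1.20 ± 0.20), C1qc, a chain of complement C1q (-0.93 ± 0.19), and Siglec1, the sialic acid receptor CD169 (-0.98 ± 0.21). Over all tested genes, 11.2% were called lower in this comparison, the share to set beside the counts of the lists below. Of the 14, 3 had positive log2 fold changes, Fcna (0.41 ± 0.20, adjusted p = 0.160) among them. None of the 14 passed in the comparisons with Flox by edgeR. An unadjusted p under 0.05 was reached by 1 of 14 in F4MKO, Fcna at -0.88 ± 0.20 (adjusted p = 0.0697), against 16.9% of all tested genes. In F4MKO+FSTL1 it was reached by 11 of 14, all lower, against 9.12% of all genes that were lower with such a p. DESeq2 called 1 and 7 of the 14, beside 338 and 284 of all genes.

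Of 10 transcription factors of Kupffer cells and macrophages, 3 fell in F4MKO+FSTL1 compared with F4MKO. These were Irf8 (-0.96 ± 0.18), Spi1, which encodes PU.1 (-0.95 ± 0.19, adjusted p = 0.00552 by edgeR), and Zeb2 (-0.72 ± 0.14), which maintains macrophage identity. Spic, a factor of iron-recycling macrophages, was at -0.84 ± 0.31 (adjusted p = 0.0762). In the comparisons with Flox, none of the 10 passed by edgeR or DESeq2. An unadjusted p under 0.05 was found for 1 of 10 in F4MKO, against 16.9% of all tested genes. It was found for 4 of 10 in F4MKO+FSTL1, all lower, against 9.12% of all genes that were lower with such a p.

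Among ligands, Csf1, which acts on the receptor encoded by Csf1r, fell in F4MKO+FSTL1 compared with F4MKO (-0.78 ± 0.19, adjusted p = 0.0142 by edgeR), and the other ligand of that receptor, Il34, was at -0.49 ± 0.29 (adjusted p = 0.247). Tgfb1 (-0.54 ± 0.14, adjusted p = 0.0187) and Gdf2, which encodes BMP9 (-0.42 ± 0.12, adjusted p = 0.0261), were lower by less than the fold change required. The Notch ligand Dll4 was at 0.37 ± 0.20 (adjusted p = 0.211), and Bmp10 had too few counts to be tested. Hp, whose product haptoglobin carries haemoglobin to the Cd163 receptor, was at -0.04 ± 0.15, and C3, whose fragments the Vsig4 receptor binds, was at -0.14 ± 0.15. None of these ligands passed in the comparisons with Flox by edgeR or DESeq2. An unadjusted p under 0.05 was found for 1 of the 5 tested niche ligands in F4MKO, against 16.9% of all tested genes. It was found for 2 of 5 in F4MKO+FSTL1, both lower, against 9.12% of all genes that were lower with such a p.

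Genes of other macrophages and of other liver cells moved in the same libraries. Of 11 genes shared by macrophages of many tissues, 9 fell in F4MKO+FSTL1 compared with F4MKO, among them Fcgr3, Ctss, Lyz2 and Cd14, with a median of -1.10, and their summed level was 482 to 682 CPM in Flox, 700.1 to 870.7 CPM in F4MKO and 290 to 441 CPM in F4MKO+FSTL1 livers. Of 9 monocyte genes, 6 fell, including Plac8 (-1.33 ± 0.21), Itgam (-1.25 ± 0.23), Ccr2 (-1.30 ± 0.28) and Cx3cr1 (-1.36 ± 0.29), and the sum of the list was 24.5 to 30.8, 32.8 to 53.8 and 14.8 to 20.5 CPM. Of 10 genes of lipid-associated macrophages, 9 fell, and Gpnmb (-2.65 ± 0.31), Lpl (-1.76 ± 0.22), Spp1 (-2.64 ± 0.35) and Lgals3 (-1.76 ± 0.24) were among them. Their sum was 311 to 381, 600.4 to 939 and 166 to 222 CPM. None of the genes of these 3 lists was at 0 in all livers of a group, and their part in the values of Csf1r, Adgre1 and the other members was not tested.

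In F4MKO compared with Flox, Gpnmb (1.70 ± 0.29) and Spp1 (2.05 ± 0.34) rose, each with an adjusted p of 0.0404 by edgeR. All 11 shared macrophage genes and all 9 monocyte genes had positive log2 fold changes, with medians of 0.47 and 0.76, but none passed. An unadjusted p under 0.05 was reached by 5 of the 11 and 3 of the 9, against 16.9% of all tested genes. DESeq2 called 0 and 2, beside 338 of all genes. The members, with a median of -0.36, had 6 of 9 values below 0 in the same libraries, beside 50.6% of all tested genes. No gene of the table, Gpnmb and Spp1 included, passed in this comparison without Flox replicate 1, Flox replicate 2, Flox replicate 3 or F4MKO replicate 1.

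Of 10 stellate cell genes, 7 fell in F4MKO+FSTL1 compared with F4MKO, among them the collagen genes Col1a1 (-2.25 ± 0.31), Col3a1 (-1.98 ± 0.21) and Col1a2 (-1.63 ± 0.19) and Dcn (-0.79 ± 0.14), with sums of 417 to 488 CPM in Flox, 565 to 724 in F4MKO and 271 to 378 in F4MKO+FSTL1 livers. All 6 genes of dividing cells fell, among them Ccnb1 (-4.12 ± 0.35), Hmmr (-4.26 ± 0.53), Mki67 (-2.54 ± 0.31) and Top2a (-2.33 ± 0.24), though Ccnb1 and Hmmr had only 2 to 8 counts in F4MKO+FSTL1 libraries. Their sums were 13.5 to 25.1, 29.3 to 37.3 and 4.998 to 8.72 CPM in the same order. Of dendritic cell genes 3 of 7 fell (Flt3, Siglech and Ccr7) and of neutrophil genes 1 of 4 (Csf3r). None of 4 B cell genes, 6 T and NK cell genes, 8 genes of sinusoidal endothelium and 7 hepatocyte genes passed. DESeq2 called 0 of them as well. An unadjusted p under 0.05 was reached by 0, 1, 3 and 1 of them, in that order, and the share of all genes at this level is not given here. Klrb1c was lower (-1.45 ± 0.50), whereas Clec4g (0.43 ± 0.14), Kdr (0.39 ± 0.15), Dnase1l3 (0.42 ± 0.18) and Apoa1 (0.50 ± 0.17) were higher. Of the 8 endothelial genes, 7 had positive log2 fold changes. In F4MKO+FSTL1 compared with Flox, 1 gene of all these lists passed by edgeR, the cyclin gene Ccnb1, with means of 0.196 and 1.77 CPM (adjusted p = 0.0469). DESeq2 called 5 of the 11 shared macrophage genes, 5 of the 10 lipid-associated, 1 of the 9 monocyte, 2 of the 10 stellate cell and 5 of the 6 dividing cell genes there. It called 284 of all genes in that comparison, and 1.64% of its genes as lower.

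**Figure D5:**
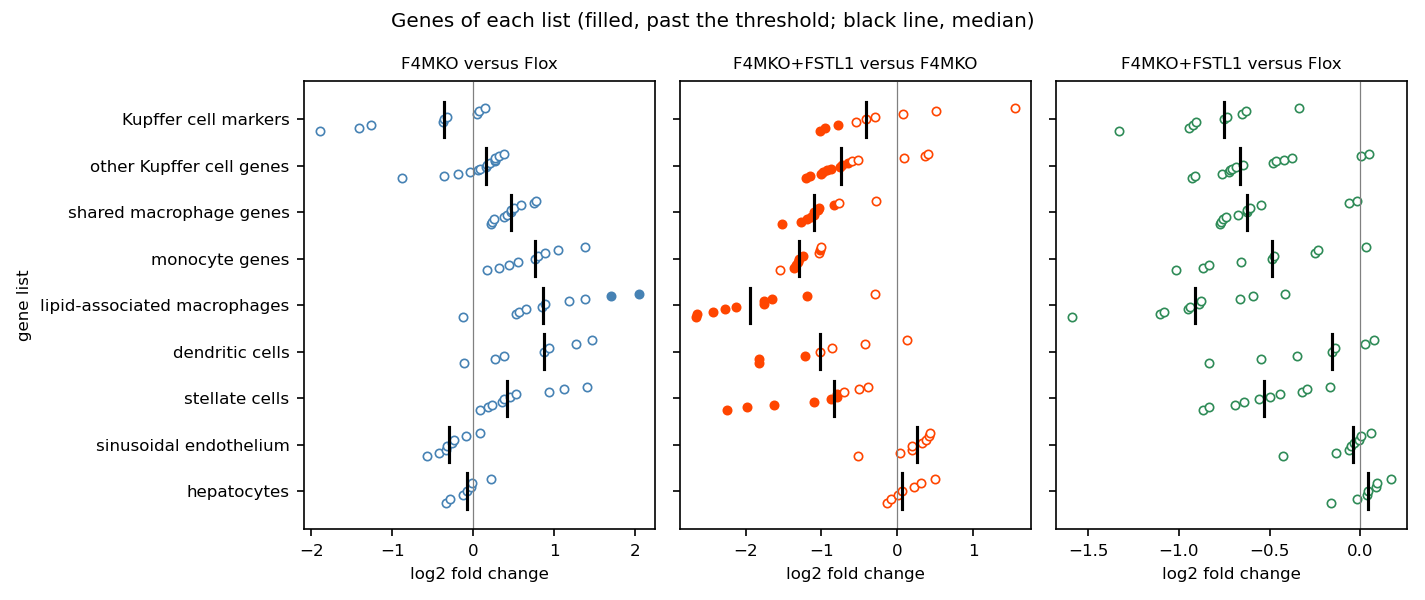
Log2 fold changes of the members and of 8 other lists of genes in the 3 comparisons, with a point per gene, filled where the threshold was passed, and a line at the median. In F4MKO compared with Flox the median of the Kupffer cell markers is -0.36 and that of shared macrophage genes 0.47, and in F4MKO+FSTL1 compared with F4MKO they are -0.41 and -1.10.

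The genes most like the members in profile were sought over the 9 libraries, as the mean absolute difference between a gene's z-scored log2 CPM and the mean z score of the members. Cfp, which encodes the complement regulator properdin and belongs to the list of other Kupffer cell genes, was nearest with 0.277. It was followed by Rims3 (0.289), Pcolce2 (0.315), Lcmt2 (0.322) and Cox7a1 (0.327). Of the members themselves, which enter the mean, Clec4f was nearest with 0.254 and Cd163 farthest with 0.851. Cfp was at 53.8, 48.6 and 71.3 CPM in Flox livers, 42.2, 58.4 and 52.0 CPM in F4MKO livers, and 30.4, 31.3 and 44.7 CPM in F4MKO+FSTL1 livers. Like Clec4f, it was highest in Flox replicate 3 and lower in all F4MKO+FSTL1 than in all Flox livers. Cfp was picked by its profile over these same libraries, so this likeness follows from the choice.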

How the data were processed

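The deposited counts are whole numbers of reads per gene and library. The authors sequenced liver RNA on BGIseq500 (paired ends, 150 bp), trimmed the reads with Trim Galore 0.6.7, mapped them to mm10 (HISAT2 2.2.1) and counted them with featureCounts 2.0.1, as the submitters' processing notes and the paper state. The annotation, the use of strand and the handling of multimapping reads are not given in the sources used here.

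The counts were fitted with edgeR 4.0.16 under R 4.3.3. The filter was filterByExpr (minimum count 10, minimum total 15), which left 14379 of 24008. All 9 libraries entered 1 quasi-likelihood fit, each group having its mean, after TMM normalization (factors 0.927 to 1.17). The thresholds are those of the study's methods. DESeq2 1.42.0 and other settings were alternatives. The fit was tested on simulated data for F4MKO+FSTL1 compared with F4MKO (14325 genes), where it called 77.8% of genes changed 2-fold and 11 of 14126 unchanged genes. The p-values judge differences between group means against the spread between mice within groups, estimated from all 9 libraries with 3 mice per group.

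The members and gene lists were chosen with earlier results of these data known. Named genes are the members, every ligand, genes from among the 4 with the smallest p per other list in F4MKO+FSTL1 compared with F4MKO, and the 5 non-members nearest in profile. Fcna was named besides, as the 1 other Kupffer cell gene with an unadjusted p under 0.05 in F4MKO compared with Flox. Aif1, Clec10a and Tf were not analysed here. Gene coordinates are from GENCODE vM21 (GRCm38).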

Additional observations from a re-analysis of the deposited data

How the results depend on the processing

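No member passed in F4MKO compared with Flox, whereas DESeq2 called 1 (Timd4) and a fit with no filter on low counts called 3 (Timd4, Marco and Cd163). Leaving out each library in turn gave 0 to 1. In F4MKO+FSTL1 compared with F4MKO the 3 calls became 0 with a test against a fold change of 1.5, where 4 members had an unadjusted p under 0.05, and 2 to 4 with a library left out. In F4MKO+FSTL1 compared with Flox the count of 0 became 3 with DESeq2, 6 with no filter, and 0 to 2 with a library left out. The cause was not tested. Signs changed for 4 values near 0 or with wide error. With a library left out, Marco in F4MKO+FSTL1 compared with F4MKO ran from -0.40 to 0.37, Cd5l and Adgre1 in F4MKO compared with Flox from -0.087 to 0.39 and from -0.028 to 0.23, and Cd163 in F4MKO+FSTL1 compared with Flox from -0.69 to 0.037. DESeq2 size factors changed no count of members called.

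Over all genes, the 39 calls in F4MKO compared with Flox became 338 with DESeq2, 478 with no filter, 11 with the 6 libraries compared, 0 with the test against a fold change of 1.5 and 0 to 100 with a library left out. The 2070 calls in F4MKO+FSTL1 compared with F4MKO became 620 with that test and 1295 to 2216 with a library left out. The 1 call in F4MKO+FSTL1 compared with Flox became 284 with DESeq2, 2 with its size factors, 379 with no filter, 0 with the 6 libraries or the test against 1.5, and 0 to 101 with a library left out. In F4MKO+FSTL1 compared with F4MKO, the other Kupffer cell genes had 5 to 11 calls with a library left out, transcription factors 2 to 5, monocyte genes 4 to 7 and stellate cell genes 5 to 8, while the shared macrophage and the lipid-associated lists each had a count of 9 every time.

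The replicate numbers are shared by the labels, but same-numbered libraries come from different mice. For replicates 1, 2 and 3, the correlations of their deviations from group means were 0.082, 0.042 and 0.169 in F4MKO compared with Flox. They were 0.111, 0.092 and 0.304 in F4MKO+FSTL1 compared with F4MKO, and 0.0008, -0.099 and 0.206 in F4MKO+FSTL1 compared with Flox. The pair of replicate 3 was the highest in each comparison. With the replicate number as a block, 0, 4 and 1 members were called (Cd163 was added in F4MKO+FSTL1 compared with F4MKO, and Adgre1 in F4MKO+FSTL1 compared with Flox), beside 134, 2170 and 15 genes in all, and Marco in F4MKO+FSTL1 compared with F4MKO was at -0.073. In that comparison, each library correlated best with its own number. Groups of 3 limit precision, and the lowest member count, 41, was that of Cd163 in F4MKO replicate 3.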
